A study of Mus musculus with 24 samples.

Results

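The genes described here are 9 mouse genes of adrenergic and cyclic AMP (cAMP) signalling: the receptors Adrb1, Adrb3, Adra1a, Adra1b and Adra2a, the transcription factors Crem and Creb1, and the phosphodiesterases Pde4b and Pde4d. They were taken by name, as every non-control probe whose annotated gene is 1 of the 9, which gave 32 of the 56605 probes on the array and 9 of its 37074 gene names. The study measured liver RNA of 24 male mice on 1-colour Agilent arrays, with 6 mice in each of 4 groups. By the series title the mice are C57Bl/6J and express PPARα in hepatocytes (labelled LWT) or do not (labelled LKO). The means of deletion, such as a Cre line, and the age of the mice are not given in the sources used here. Each genotype received either vehicle, 0.5% carboxymethyl cellulose in water, or the beta3-adrenergic agonist CL316243 at 3 mg/kg in that vehicle. Both were gavaged at Zeitgeber hour 10, and all livers were taken at hour 16 from mice with free access to standard diet.

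Catecholamines act on hepatocytes and other liver cells through these receptors. Beta receptors couple to the stimulatory G protein and raise cAMP, alpha-1 receptors couple to phospholipase C and calcium, and alpha-2 receptors lower cAMP. The cAMP so formed activates protein kinase A, which phosphorylates CREB (Creb1), while Crem encodes related activators and, from an internal promoter, an inducible repressor. PDE4 enzymes hydrolyse cAMP and so end the signal. Adrb3 is best known as the receptor of adipocytes, where CL316243 triggers lipolysis.

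Levels are the log2 of the background-subtracted intensity minus the log2 of that array's 75th percentile, so 0 is the 75th percentile of the array. They are comparable for 1 probe across mice, not between probes. A probe was tested if it was well above background, by the scanner's own flag, on at least 4 of the 6 arrays of a group, which 20 of the 32 probes were. These cover 8 of the 9 genes, and the brightest of a gene's tested probes stands for it. A change is called at a Benjamini-Hochberg adjusted p under 0.05 in limma over 21331 genes; further probes were fitted the same way over 32037 probes. Replicates are separate mice, and the number of arrays limits the precision. The arrays lay on 3 slides of 8, with 2 mice of each group on every slide, and between 26985 and 34202 of the probes were well above background on an array. On the array all 6 hepatocyte markers, among them Alb and Ttr, were well above background in all 24 livers. Ppara, the targeted gene, had a level of 5.69 ± 0.16 (SD, n = 6) in LWT and 5.01 ± 0.15 in LKO under vehicle, a difference of -0.68 (limma adjusted p = 0.158) with no overlap. Under CL316243 its LKO minus LWT difference was -1.91 (adjusted p = 3.6e-07), and whether its probes lie in the deleted part is not given in the sources used here.

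Some of the probes are shown because they read separate stretches of a transcript. The lines below give array probes from the coding part of Adrb3, from 2 places in Pde4d, and from the end of the Pde4b coding sequence, 5′ to 3′ on the transcript. Capitals mark the stop codon where the probe holds it.
Adrb3: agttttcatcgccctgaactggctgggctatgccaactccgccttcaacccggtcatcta
Pde4d (upstream): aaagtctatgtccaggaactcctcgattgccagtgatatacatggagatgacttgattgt
Pde4d (end): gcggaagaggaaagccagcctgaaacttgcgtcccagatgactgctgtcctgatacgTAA
Pde4b: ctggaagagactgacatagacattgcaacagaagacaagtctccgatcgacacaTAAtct
In the array's own annotation (mouse build mm9) they lie at chr8:28337864-28337923 on the minus strand, chr13:110530748-110547805, chr13:110741493-110741552 and chr4:102277888-102277947, the last 3 on the plus strand. The upstream Pde4d probe starts at transcript base 605 and its ends are far apart in the genome, so it spans an intron. The end probe starts at base 2364 of the same transcript. The Adrb3 probe shown starts at base 1779 of its transcript, and the brighter Adrb3 probe at base 2715.

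Under CL316243, 4 of the 8 tested genes changed in LWT livers: Crem and Pde4d rose and Adrb3 and Adra1b fell. This is beside 38.3% of all tested genes called in that comparison. In LKO livers 3 changed, Crem higher and Adrb3 and Adra1b lower, beside 40.3% of all genes. No gene's response was called different between the genotypes (0 of 8, beside 5.41% of all genes called). Between LKO and LWT livers under vehicle none of the 8 was called (0 of 8, beside 1.18% of all genes called). In both comparisons 0 of the 8 had an unadjusted p under 0.05 in limma, a threshold at which the share of all genes was not taken. Under CL316243, 2 differed, Pde4b higher and Pde4d lower in LKO, beside 15.9% of all genes. The median log2 change of the 8 genes was 0.08 in LWT and 0.14 in LKO, and that of all 21331 genes was 0.01 and 0.03.

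**Figure D1:**
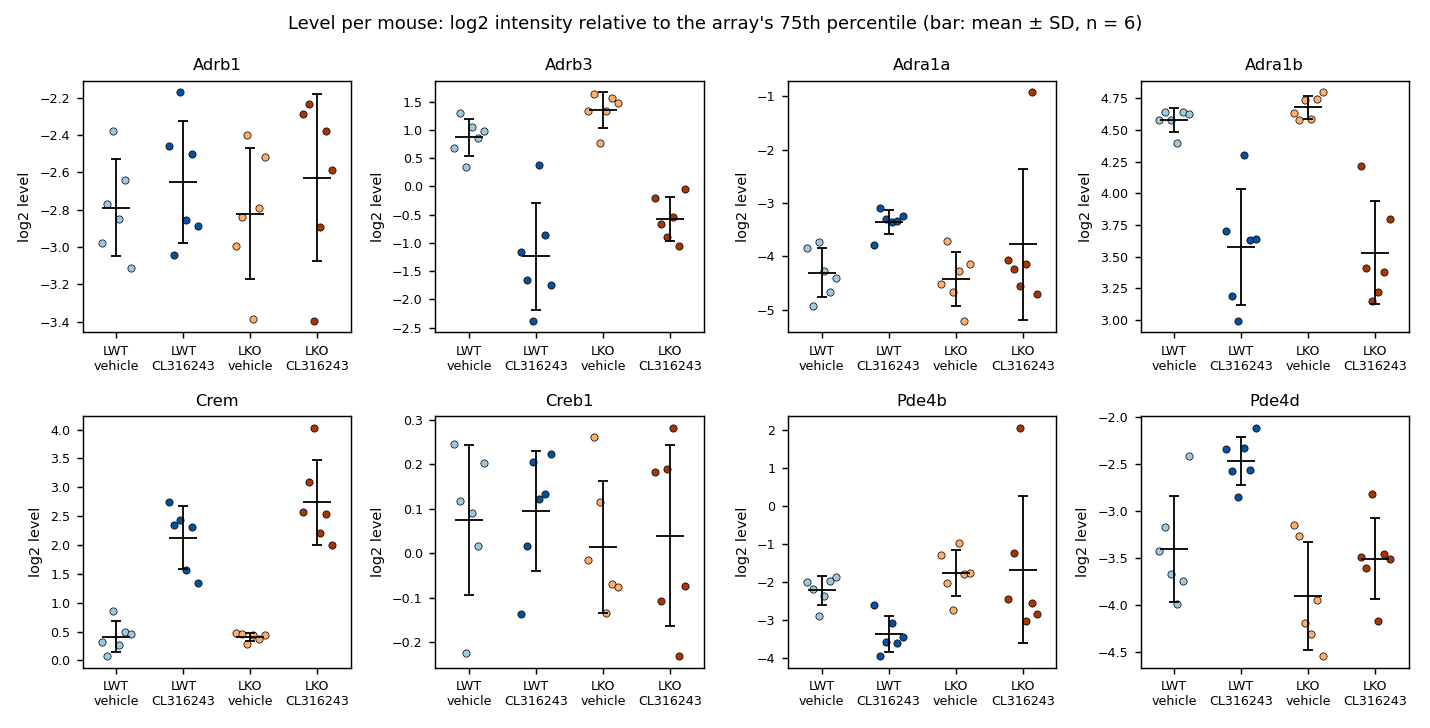
Level of the 8 tested genes in every mouse, on the log2 scale relative to the array's 75th percentile, with 1 point per mouse and the mean ± SD of 6 mice as bars. Crem and Adra1b separate vehicle from CL316243 in both genotypes, while 1 LKO CL316243 mouse stands far above its group for Adra1a (-0.93) and another for Pde4b (2.06).

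Adrb3, the beta3 receptor that the agonist targets, had the largest fall of the 8. In LWT livers its brighter probe was at 0.34 to 1.30 under vehicle (median 0.92) and at -2.38 to 0.38 under CL316243 (median -1.40). In LKO livers it was at 0.76 to 1.63 under vehicle (median 1.41) and at -1.05 to -0.05 under CL316243 (median -0.61). The groups did not overlap in LKO, and in LWT they overlapped through 1 CL316243 mouse, replicate 4 at 0.38. The log2 change was -2.10 (SE 0.31, limma adjusted p = 1.47e-05), a 4.30-fold fall, in LWT. It was -1.92 (SE 0.31, adjusted p = 4.64e-05), a 3.78-fold fall, in LKO. The interaction was 0.19 (95% confidence interval -0.72 to 1.09, adjusted p = 0.874).

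The second, coding probe of Adrb3 was dimmer, well above background on 6 of 6 vehicle arrays in each genotype but on 1 LWT and 3 LKO arrays under CL316243. It was tested only through the vehicle groups, where it is high, so its sizes are not exact and it is no separate support for the fall. Its fitted change was -2.14 in LWT (SE 0.46, limma adjusted p = 0.000888), with no overlap between groups. In LKO it was -1.09 (SE 0.46, adjusted p = 0.0653), and the groups overlapped through CL316243 replicate 3 at -1.86, where the group's median was -4.47. Between genotypes under CL316243, Adrb3 was 0.67 higher in LKO on the brighter probe (SE 0.31, adjusted p = 0.159) and 1.28 on the coding probe (SE 0.46, adjusted p = 0.0668), neither called. Without LWT CL316243 replicate 4 the brighter probe's difference was 0.99 (adjusted p = 0.00575), which would be called. With the mean of both probes, which takes in the dimmer one, it was 0.97 (adjusted p = 0.0475). It was not called under the other 13 alternatives, nor with any of the other 23 mice left out. Within the 3 slides the brighter probe's difference was -0.10, 1.89 and 0.21.

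Since Adrb3 is an adipocyte gene, the 5 adipocyte markers are given beside it: Adipoq, Plin1, Lep, Retn and Cfd. Adipoq, the defining one, was well above background on 6 of 24 arrays. The summed linear level of the list ranged from 0.86 to 1.77 under vehicle and from 0.80 to 1.02 under CL316243 in LWT, a ratio of means of 0.783 (exact permutation test on the log2 sums, two-sided, p = 0.147). In LKO it ranged from 0.68 to 1.09 under vehicle and from 0.69 to 1.61 under CL316243, a ratio of 1.15 (exact p = 0.556). Lep was at -0.96 ± 0.11 (SD, n = 6) under vehicle and at -1.02 ± 0.16 under CL316243 in LWT. Cfd was at -1.60 ± 1.05 and -2.57 ± 1.12 in LWT, a change of -0.98 that did not pass (limma adjusted p = 0.341), and was mostly at background in LKO. None of the 4 tested markers passed in either genotype, with log2 changes of -0.98 to 0.29, and their part in the fall of Adrb3 was not tested. In whole liver, fewer cells of a type and less RNA per cell cannot be told apart.

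Adra1b encodes the alpha-1B receptor, the main alpha-1 subtype of rodent liver, and it has 1 probe, at chr11:43588814-43588873 in mm9. In LWT it was at 4.40 to 4.64 under vehicle (median 4.60) and at 2.99 to 4.30 under CL316243 (median 3.63). In LKO it was at 4.58 to 4.80 under vehicle (median 4.69) and at 3.15 to 4.22 under CL316243 (median 3.40). All treated mice lay below all vehicle mice of their genotype, and the spread was wider with the agonist (SD 0.46 and 0.41 against 0.09 and 0.09). Its log2 change was -1.0 in LWT (SE 0.17, limma adjusted p = 0.000101), a 2.0-fold fall, and -1.15 in LKO (SE 0.17, adjusted p = 2.53e-05), a 2.22-fold fall. The interaction was -0.15 (95% confidence interval -0.66 to 0.36).

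Adra1a, the alpha-1A receptor, was near the detection limit: 1 of its 2 probes was never well above background, and the other was on 19 of 24 arrays. That probe was at -4.92 to -3.73 in LWT under vehicle (median -4.34) and at -3.78 to -3.09 under CL316243 (median -3.32). Here 5 of the 6 treated mice lay above every vehicle mouse, and the groups overlapped through replicate 1. The difference of 0.95 did not pass (SE 0.44, limma adjusted p = 0.0913), in a fit whose common error includes 1 LKO CL316243 mouse at -0.93, replicate 5. Without that mouse the same difference had an adjusted p of 0.00154, and in a fit of the 12 LWT mice alone 0.00239. In LKO the change was 0.65 (SE 0.44, adjusted p = 0.25) with all mice, against 0.08 without replicate 5. The LKO minus LWT difference under CL316243 was -0.42 (adjusted p = 0.591) with all mice and -0.99 (adjusted p = 0.00481) without replicate 5.

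Adrb1, the beta-1 receptor best known from the heart, was well above background on all 24 arrays. Its probe was at -3.11 to -2.38 in LWT under vehicle, -3.04 to -2.17 in LWT under CL316243, -3.38 to -2.40 in LKO under vehicle and -3.40 to -2.23 in LKO under CL316243. All 4 ranges overlap, and the group medians lay between -2.81 and -2.48. The change with CL316243 was 0.14 in LWT (95% confidence interval -0.27 to 0.54, limma adjusted p = 0.627) and 0.19 in LKO (-0.22 to 0.60, adjusted p = 0.461). Adra2a, the alpha-2A receptor, was at background: its 1 probe was well above it on 1 of 24 arrays, an LWT mouse given CL316243, so no fold is given.

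Crem rose most of the 8 genes. The probe that stands for it was at 0.07 to 0.86 in LWT under vehicle (median 0.39) and at 1.35 to 2.74 under CL316243 (median 2.33). In LKO it was at 0.29 to 0.47 under vehicle (median 0.44) and at 1.99 to 4.03 under CL316243 (median 2.55). Every treated mouse exceeded every vehicle mouse of its genotype. The change was 1.71 in LWT (SE 0.26, limma adjusted p = 2.54e-05), or 3.28-fold, and 2.32 in LKO (SE 0.26, adjusted p = 8.93e-07), or 5.0-fold. Without the highest mouse, LKO CL316243 replicate 3 at 4.03, the LKO change was 2.07. Neither the interaction of 0.61 (95% confidence interval -0.16 to 1.38, adjusted p = 0.421) nor the LKO minus LWT difference of 0.61 under CL316243 (adjusted p = 0.126) was called. Within the 3 slides the interaction was 2.39, -0.38 and -0.17, and the difference 2.10, -0.11 and -0.15. Replicate 3 lay on the first slide.

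Of the 5 Crem probes, 3 were well above background on all 24 arrays, and all 3 rose in both genotypes, beside 37.6% of all tested probes called in LWT and 41.0% in LKO. Those at bases 1666 and 1044 of the same transcript changed by 1.48 and 1.71 in LWT and by 2.08 and 2.32 in LKO. The third, annotated to a different transcript, changed by 0.71 in LWT and by 0.64 in LKO. A further probe was tested only through the treated groups, well above background on 1 and 3 of 6 vehicle arrays and on 4 of 6 treated arrays in each genotype. Its fitted changes of 0.93 (SE 0.44, limma adjusted p = 0.102) and 1.16 (SE 0.44, adjusted p = 0.0388) are no separate support. Whether the sizes differ between the probes was not tested, since probe response differs.

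Creb1, which encodes CREB itself, a factor regulated mainly by phosphorylation, had much the same level in all groups on the probe that stands for it. That probe was at -0.22 to 0.25 in LWT under vehicle, -0.14 to 0.22 in LWT under CL316243, -0.13 to 0.26 in LKO under vehicle and -0.23 to 0.28 in LKO under CL316243. The 4 ranges nearly coincide. The change was 0.02 in LWT (95% confidence interval -0.18 to 0.22, limma adjusted p = 0.901) and 0.03 in LKO (-0.18 to 0.23, adjusted p = 0.854). The 5 tested probes of Creb1 disagreed, however. The one starting at transcript base 8359 fell in both genotypes, by 0.49 in LWT (SE 0.17, adjusted p = 0.0257, with 1 of the 6 vehicle values dropped as an outlier spot) and by 0.64 in LKO (SE 0.16, adjusted p = 0.00288). The one starting at base 1184 rose in LKO by 0.48 (SE 0.15, adjusted p = 0.0135), while its change in LWT was 0.07 (adjusted p = 0.77). These 3 probes are annotated to the same transcript, so no single direction can be given for Creb1.

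**Figure D2:**
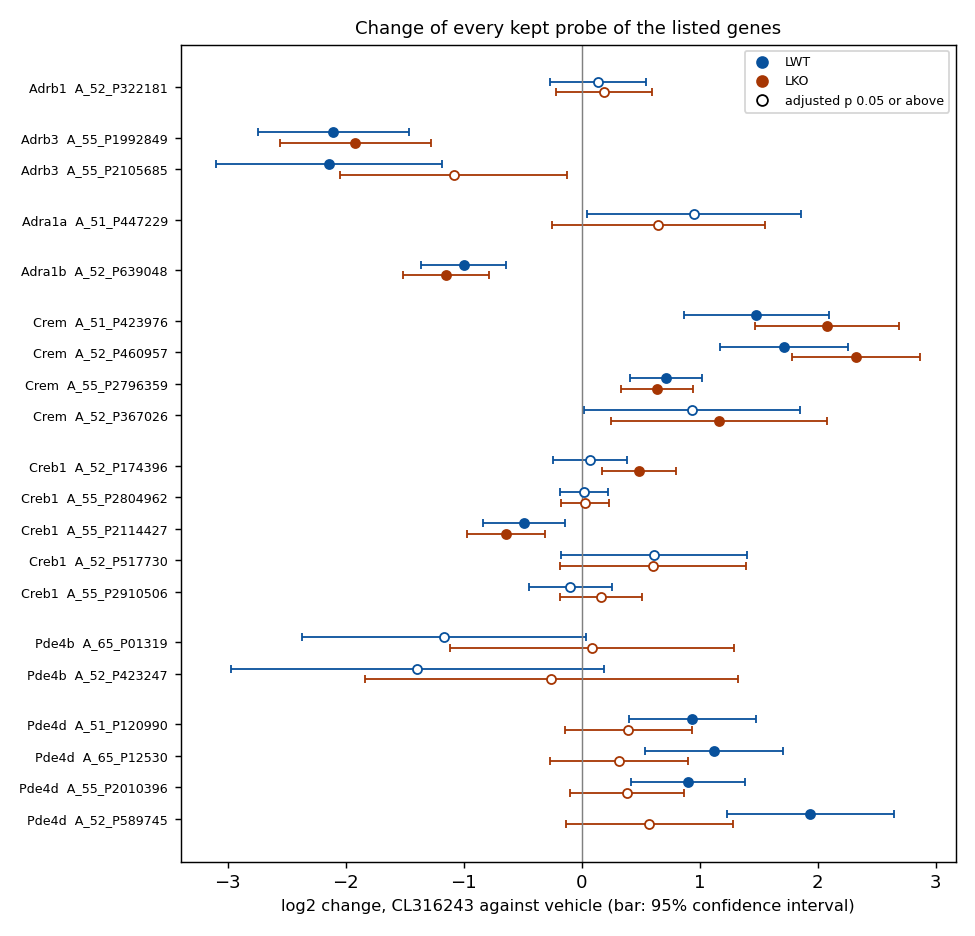
Log2 change with CL316243 against vehicle for each of the 20 tested probes, as a point with its 95% confidence interval, in LWT (blue) and LKO (brown); open points did not pass an adjusted p under 0.05. All probes of Adrb3 lie below 0 and all probes of Crem and Pde4d above it in both genotypes, while those of Creb1 lie on both sides; Adrb3 A_55_P2105685, Crem A_52_P367026 and Pde4d A_52_P589745 were mostly at background in their lower groups.

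Pde4d, a cAMP-specific phosphodiesterase, rose with CL316243 in LWT livers on the 3 probes that 5 or 6 of 6 arrays of both LWT groups detected, and was lower in LKO than in LWT livers given the agonist. The probe that stands for it was at -3.99 to -2.41 in LWT under vehicle (median -3.55) and at -2.85 to -2.12 under CL316243 (median -2.46). In LKO it was at -4.54 to -3.15 under vehicle (median -4.07) and at -4.16 to -2.82 under CL316243 (median -3.49). In LWT the groups overlapped through 1 vehicle mouse, replicate 6 at -2.41. The change was 0.94 in LWT (SE 0.26, limma adjusted p = 0.00667), or 1.91-fold, and 0.40 in LKO (SE 0.26, adjusted p = 0.239). The LKO minus LWT difference under CL316243 was -1.04 (SE 0.26, adjusted p = 0.00735), a 2.06-fold lower level, and under vehicle -0.50 (SE 0.26, adjusted p = 0.686). With normexp background correction and quantile normalization the LWT change was 0.46 and the LKO minus LWT difference -0.53, both still called.

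Those 3 probes passed in LWT, with changes of 0.90 to 1.12, and none of them in LKO, with 0.32 to 0.40. In the LKO minus LWT comparison under CL316243 all 3 were lower in LKO, with differences of -1.13 to -0.90, beside 15.4% of all probes called there; each was well above background on 5 or 6 of 6 arrays of both treated groups. The upstream probe printed above was tested only through the LWT CL316243 group, where it is high, so its sizes are not exact and it is not counted with the 3. It was at -6.55 to -3.90 in LWT under vehicle, well above background on 3 of 6 arrays, and at -3.10 to -2.42 under CL316243, on 6 of 6. It did not overlap between these groups, and its fitted change was 1.94 (SE 0.34, limma adjusted p = 0.000116). In LKO the same probe was well above background on 2 of 6 arrays under vehicle and on 2 of 6 under CL316243, with a fitted change of 0.57 (SE 0.34, adjusted p = 0.188). The end probe, also printed above, changed by 0.90 in LWT (SE 0.23, adjusted p = 0.0039) and by 0.38 in LKO (SE 0.23, adjusted p = 0.198), where 3 of 6 vehicle arrays were well above background. Even so, the response itself was not called different between genotypes: the interaction was -0.54 on the probe that stands for the gene (95% confidence interval -1.31 to 0.22, adjusted p = 0.482). On the upstream probe it was -1.37 (95% confidence interval -2.36 to -0.37, adjusted p = 0.103). The other 4 Pde4d probes, annotated to other transcripts, were each well above background on at most 1 of 24 arrays.

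Pde4b, the related enzyme that is prominent in leukocytes, was the most variable of the 8 genes under CL316243 in LKO livers. Its main probe was at -2.89 to -1.85 in LWT under vehicle (median -2.08) and at -3.95 to -2.59 under CL316243 (median -3.51). In LKO it was at -2.73 to -0.96 under vehicle (median -1.78) and at -3.03 to 2.06 under CL316243 (median -2.50). The value of 2.06 belongs to replicate 3, and the next highest treated LKO mouse was at -1.23. The LWT change was -1.17 (SE 0.58, limma adjusted p = 0.121) and the LKO change 0.09 (SE 0.58, adjusted p = 0.918). Without LKO CL316243 replicate 3 the LWT change had an adjusted p of 0.00354, and the LKO change became -0.66 (adjusted p = 0.111).

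LKO exceeded LWT livers under CL316243 by 1.70 for Pde4b (SE 0.58, limma adjusted p = 0.0495), a 3.25-fold difference just inside the threshold. Without replicate 3 it was 0.95 (SE 0.32, adjusted p = 0.0389). Within the 3 slides it was 3.68, 1.12 and 0.30, with replicate 3 on the first. The call was lost under 27 of the 38 alternatives tried, among them adjustment over all probes (adjusted p = 0.0502). The second tested probe, whose sequence is printed above, gave 1.60 (SE 0.76, adjusted p = 0.174). It was well above background on 2 of 6 LWT arrays under CL316243, so that size is not exact, and in LKO under CL316243 it ranged from -7.33 to -0.005. The remaining 4 of the 6 Pde4b probes were well above background on 1 to 5 of 24 arrays.

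**Figure D3:**
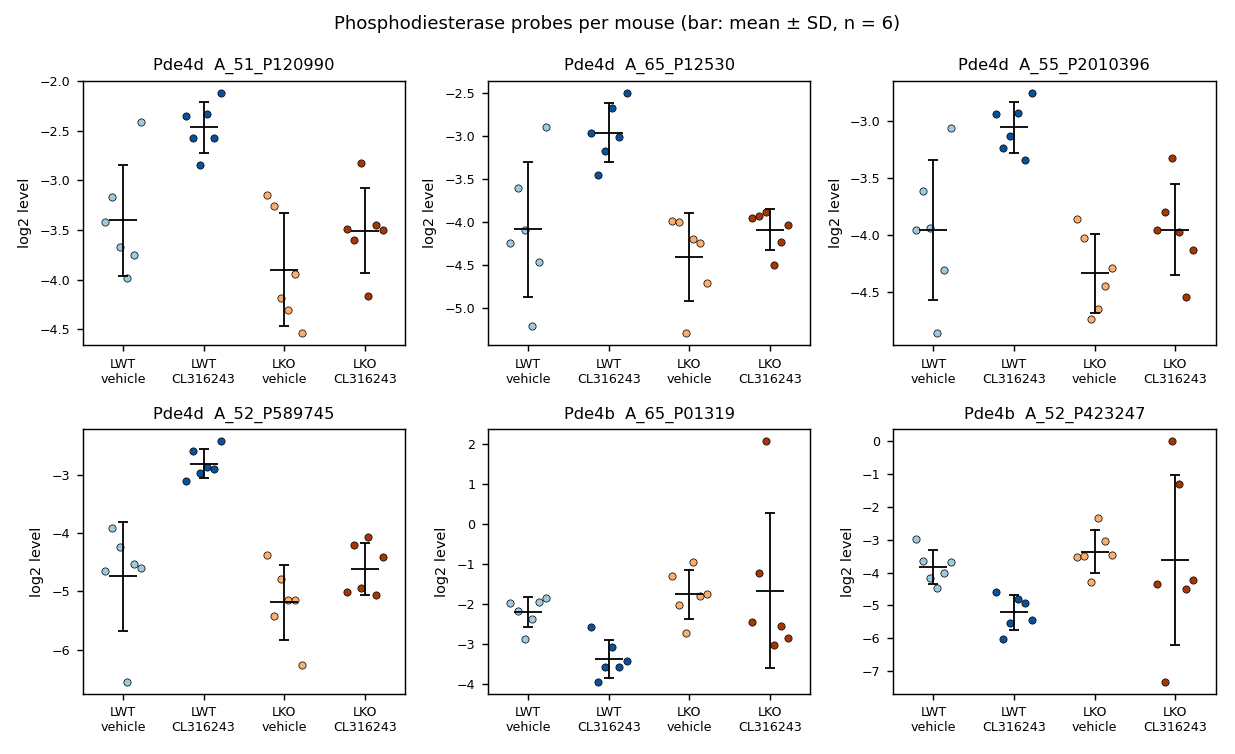
Level per mouse of the 4 tested Pde4d probes and the 2 tested Pde4b probes, on the log2 scale relative to the array's 75th percentile, with mean ± SD of 6 mice. The mean of each Pde4d probe is highest in LWT given CL316243, and the main Pde4b probe has 1 LKO CL316243 mouse at 2.06.

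Values of markers of other cell types are given beside Crem and Pde4b; they were summed on the linear scale, so a sum follows its brightest genes. The neutrophil list (S100a8, S100a9, Ngp, Camp and Mpo) summed to 1.64 to 4.74 under vehicle and 1.76 to 12.4 under CL316243 in LWT, a ratio of means of 2.86 (exact permutation test on the log2 sums, two-sided, p = 0.0325, adjusted over 16 tests 0.104). In LKO it summed to 1.70 to 2.95 under vehicle and 4.17 to 43.1 under CL316243, a ratio of 6.62 (exact p = 0.00217, adjusted 0.0115). The 43.1 is LKO CL316243 replicate 3, and without it the ratio was 3.84. This mouse was also the highest of its group on the probes that stand for Crem (4.03), Pde4b (2.06) and Pde4d (-2.82). It was the lowest for Adra1b (3.15) and Adrb1 (-3.40). The 2 Adrb3 probes differed in it: the dim coding probe was the highest of the group (-1.86), while the brighter probe (-0.90) lay below the group median of -0.61. S100a8 and S100a9 carry the sum, with log2 changes of 1.48 and 1.44 in LWT (limma adjusted p = 0.0464 and 0.0409) and of 2.30 and 2.25 in LKO (adjusted p = 0.00291 and 0.0023). No other member passed as higher: Camp fell by 0.41 in LWT (adjusted p = 0.000472) and had a change of 0.01 in LKO, Mpo had changes of 0.21 and 0.29 (adjusted p = 0.36 and 0.184), and Ngp was well above background on 2 of 24 arrays. LWT CL316243 replicate 4, the treated mouse with Adrb3 in the vehicle range, had a neutrophil sum of 1.76. In that mouse Adra1b (4.30) was the highest of its group and Crem (1.57) lay below the group median of 2.33. Its Pde4d (-2.33) lay above the group median of -2.46. Cholangiocyte markers (Krt19, Krt7, Epcam and Sox9) gave a ratio of 2.12 in LWT (exact p = 0.013, adjusted 0.052) and 3.90 in LKO (exact p = 0.00217, adjusted 0.0115). Sox9 carries it, with log2 changes of 1.47 in LWT (limma adjusted p = 0.00168) and 2.18 in LKO (adjusted p = 3.54e-05), while Krt19, Krt7 and Epcam had changes of -0.53 to 0.76, none of which passed. The endothelial list rose in LWT by a ratio of 1.14 (exact p = 0.00217, adjusted 0.0115) and had a ratio of 1.03 in LKO (exact p = 0.654). Of its 4 genes, Lyve1 rose by 1.18 in LWT and 2.39 in LKO (limma adjusted p = 0.00799 and 1.16e-05), Pecam1 by 0.49 in LWT (adjusted p = 0.00613), and Stab2 and Clec4g passed in neither. Ratios of the hepatocyte, Kupffer cell, stellate cell and lymphocyte lists lay between 0.974 and 1.17, with exact p from 0.108 to 0.959. Single genes of these lists still passed, among them the stellate cell gene Lrat at -0.71 in LWT (limma adjusted p = 0.00976). Within the lymphocyte list, whose sum is mostly Cd3e, the B cell marker Ms4a1 had log2 changes of -1.45 in LWT and -1.67 in LKO (limma adjusted p = 0.00211 and 0.000613; well above background on 3 of 6 LKO arrays under CL316243), and Cd79a was not well above background on any array. The part of these cells in the gene results was not tested.

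Of 64 other genes of the pathway, listed by role and chosen with earlier results of these data known, 56 were tested. In LWT 17 rose and 11 fell with CL316243, with a median log2 change of 0.15, which is 50% called beside the 38.3% of all genes. In LKO 17 rose and 12 fell, with a median of 0.06, or 51.8% beside 40.3%. Of the called genes, 2 in LWT and 3 in LKO were well above background on fewer than 4 of 6 arrays of their lower group, Adcy1 among them. Among 3 tested further receptors 1 rose and 2 fell in both genotypes. The falling ones were Gcgr, the glucagon receptor (-0.41 in LWT, limma adjusted p = 0.00705, and -0.35 in LKO, adjusted p = 0.0187), and Adra2b, an alpha-2 receptor (-0.51 and -0.79, adjusted p = 0.0476 and 0.00303). Gnas, the stimulatory G protein, rose by 0.17 in LWT (adjusted p = 0.0132), and its change in LKO was 0.05 (adjusted p = 0.528). Prkaca, a catalytic subunit of protein kinase A, fell by 0.36 in LWT and by 0.35 in LKO (adjusted p = 0.0151 and 0.017).

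Adenylyl cyclases moved in both directions, with 2 of 6 tested higher and 1 lower in LWT, and 1 higher and 2 lower in LKO. That is 50% called in each genotype, beside 38.3% of all genes in LWT and 40.3% in LKO. Adcy9 fell by 0.98 in LWT and by 0.91 in LKO (limma adjusted p = 0.00013 and 0.000269), with no overlap between groups. Adcy1 was tested only through the LKO CL316243 group, where it was well above background on 6 of 6 arrays against 2 of 6 under vehicle, so its fitted change of 3.49 in LKO (SE 0.64, adjusted p = 0.000163) is not exact. In LWT it was not well above background on any vehicle array and was on 3 of 6 treated arrays (limma adjusted p of the fit 0.00379). Against each vehicle array's lowest level well above background, the treated mean was 1.41-fold higher. That mean takes in treated arrays not well above background, so the 1.41 is no strict lower limit. The phosphodiesterase Pde4a fell by 0.73 in LWT and by 0.69 in LKO (adjusted p = 0.0287 and 0.0362). Crtc1, a CREB coactivator, fell by 0.65 and 0.72 (adjusted p = 0.000241 and 8.42e-05).

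In the list of cAMP-inducible genes, 5 of 12 rose and 1 fell in LWT, and 6 rose and none fell in LKO. That is 50% called in each genotype, beside 38.3% of all genes in LWT and 40.3% in LKO. Of all genes, 18.9% were called higher and 19.4% lower in LWT, and 20.9% higher and 19.4% lower in LKO. Irs2, an insulin receptor substrate, rose by 2.88 in LWT (limma adjusted p = 0.000178) and by 1.89 in LKO (adjusted p = 0.00655). Fos, an immediate early gene, rose by 1.48 in LWT (adjusted p = 0.0341) and by 3.10 in LKO (adjusted p = 0.000104). Nr4a1, an early-response nuclear receptor, rose by 0.99 in LWT (adjusted p = 0.023) and by 2.57 in LKO (adjusted p = 4.76e-06), with an interaction of 1.58 that was not called (adjusted p = 0.0534). Pck1, the gluconeogenic PEPCK enzyme, had changes of 0.34 and 0.29 (adjusted p = 0.571 and 0.606). Of the 56 genes only Ppargc1a, the coactivator PGC-1alpha, had a called interaction (1.79%, beside 5.41% of all genes). It fell by 1.47 in LWT (SE 0.40, adjusted p = 0.00513), its change in LKO was 0.62 (SE 0.40, adjusted p = 0.222), and the responses differed by 2.09 (SE 0.56, adjusted p = 0.0282).

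Between genotypes under vehicle 1 of the 56 differed, beside 1.18% of all genes. It was Adrbk2, a kinase that desensitises beta receptors, named after its values were seen, at -0.83 in LKO minus LWT (limma adjusted p = 0.00528). Under CL316243 5 were called, beside 15.9% of all genes. Nr4a1 (1.54) and Ppargc1a (1.66) were higher in LKO, and Adrbk2 (-1.42) and Crebbp (-0.58) lower. Adcy1, also called, was fitted 2.03 higher in LKO. It was tested only through the LKO CL316243 group, where it is high, and was well above background on 3 of 6 LWT arrays. Its size is therefore not exact, and its call is no support for a difference. The adjusted p of the 5 ranged from 7.75e-07 for Adrbk2 to 0.0313 for Adcy1.

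**Figure D4:**
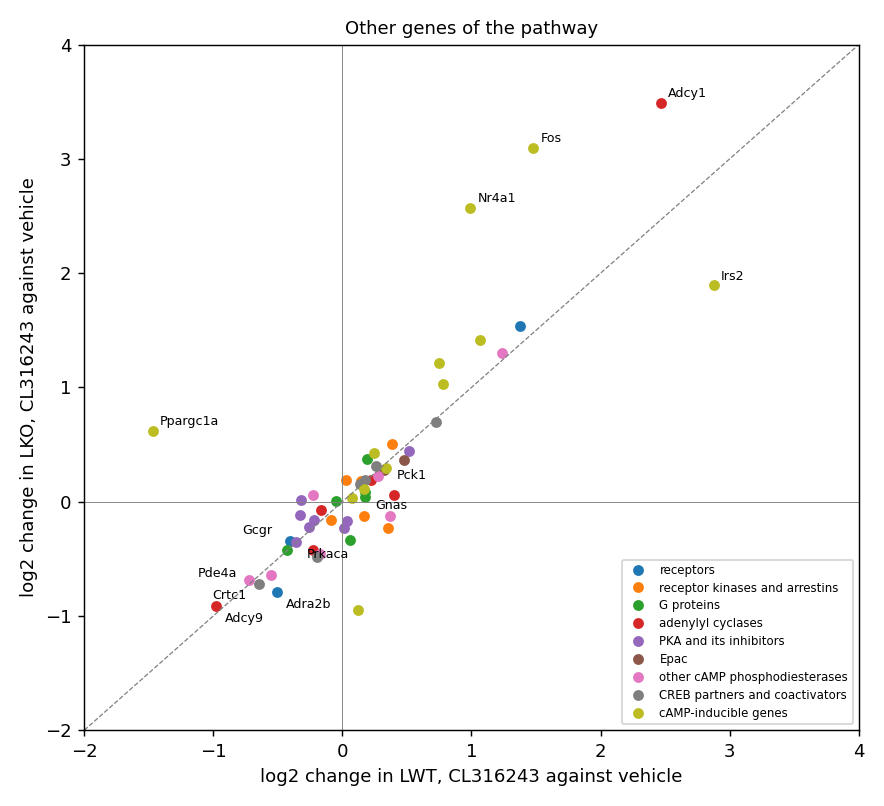
Log2 change with CL316243 in LWT (horizontal axis) and LKO (vertical axis) for the 56 other pathway genes tested, coloured by role, with the named genes labelled and the dashed line marking equal change. Ppargc1a lies at -1.47 and 0.62, and Adcy9 near the line at -0.98 and -0.91; Adcy1 is drawn at its fitted values, which are not exact.

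The genes whose levels followed each called member most closely over the 24 arrays are given as a description. The 24 points share the treatment groups. Genes named only by a probe, clone or gene model identifier were passed over, so closer ones may exist. For Adrb3 the closest were Dhdh (Pearson r = 0.956), a dihydrodiol dehydrogenase, and Akr1c14 (r = 0.951), a steroid-metabolising aldo-keto reductase. These changed by -1.0 and -1.88 in LWT and by -1.05 and -1.46 in LKO. For Adra1b they were Nit2 (r = 0.967) and Lrit1 (r = 0.963), and for Crem Zfp747 (r = 0.975) and Ripk1 (r = 0.975). Pde4d was most like Chuk (r = 0.851), an IκB kinase subunit, and Pnpla8 (r = 0.843), a phospholipase. Pnpla8 rose by 0.74 in LWT and by 0.19 in LKO (limma adjusted p = 8.29e-09 and 0.0172), with a called interaction of -0.55 (adjusted p = 0.000389). Pde4b was most like Rnd1 (r = 0.888) and Zfp281 (r = 0.875).

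The RefSeq promoter windows (GRCm38.p6) of 6 of the 9 genes, 10 windows in all because Pde4b and Adra1b have several starts, were searched on both strands. The full cAMP response element TGACGTCA was in 0 of the 10, beside 1.79% of all 32851 windows. Its half-site TGACG, which the full element contains, was in 3 of the 10, those of Adrb1, Adra2a and 1 of Pde4b, beside 20.8% of all. Neither Adrb3 nor Crem has a window in the table.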

How the data were processed

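The authors deposited scanner tables of spot intensity, made per the file headers in version 10.10.1.1 of Agilent's Feature Extraction program; its processed signal is linear and background-subtracted. The authors' deposited series table holds log2 values; on 31367 probes it differed by a median of 0.000254 from quantile-normalized log2 median signal, so its scale is log2, with no centring (column medians 8.08 to 8.09).

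From the processed intensity, non-uniform and population outlier spots (2156 over all arrays) were dropped, spots of a probe averaged on the log2 scale, and the log2 75th percentile of each array (397.4 to 577.7 in intensity) subtracted. No spot was saturated. Genes took their brightest tested probe. limma 3.58.1 in R 4.3.3 fitted 1 mean per group over all 24 arrays, with 5 contrasts and no block; it was tested on simulated data. Symbols are the array's own, and all 9 genes matched RefSeq symbols. The submitters' processing notes also name limma.

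The 9 genes and all lists were chosen with earlier results of these data known. Named genes are all members with every probe, 6 set pathway genes, and the called pathway genes with the largest changes. The last are up to 3 each way in 3 comparisons. The 2 most correlated genes of each called member are also named, passing over probe, clone and gene model identifiers. Adrbk2 and Crebbp fall outside this rule and were named after their values were seen. Marker lists were summed on the linear scale and compared by exact permutation over 924 splits.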

Additional observations from a re-analysis of the deposited data

Results flagged for a closer look

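In 5 of 32 groups of 6 mice checked over the 8 genes, 1 mouse lay farther from the others than Dixon's 95% limit for that number allows; chance flags about 1 group in 20. For Adra1a, LKO CL316243 replicate 5 was at -0.93, where the other mice were at -4.71 to -4.07. For Adra1a in LWT given CL316243, replicate 1 was lowest at -3.78, below -3.35. For Pde4b, LKO CL316243 replicate 3 was at 2.06, where the others were at -3.03 to -1.23. For Adrb3, LKO vehicle replicate 3 was lowest at 0.76, below 1.33. For Adra1b, LWT vehicle replicate 4 was lowest at 4.40, below 4.58.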

How the results depend on the processing

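Each comparison was repeated under 14 alternatives (13 for the interaction) and with each of the 24 mice left out. The calls of Adrb3, Adra1b and Crem in both genotypes, of Pde4d in LWT, and of Pde4d between genotypes under CL316243 were the same under all 38 of their alternatives; no called change reversed. The count of members called between LKO and LWT under CL316243 was 1 in place of 2 with normexp background and quantile normalization, with series table values, with no filter on dim probes, with adjustment over all kept probes, with slide as a block, with slide and row as fixed effects, with the replicate block and with only the 2 groups compared, in each case without Pde4b. With the mean of all kept probes it was again 2, with Adrb3 in place of Pde4b. With 1 mouse left out it ranged from 1 to 3. In LWT, only the 2 groups compared gave 6 calls in place of 4, adding Adra1a and Pde4b. With the replicate block the counts were 4, 3, 0, 0 and 1, so it changed no call but that of Pde4b (adjusted p = 0.0811). No label says what a replicate number shared between groups marks. Over 36 same-number pairs the correlation of deviations was -0.183 to 0.421 (median 0.052), with 9 over 0.1. Of the 24 arrays, 10 were closest to their own number. Whether the numbers pair the mice was not tested. Depth of signal limits Adra1a, Adra2a, the coding Adrb3 probe, a further Crem probe, the upstream Pde4d probe, the second Pde4b probe and Adcy1, which were near background in at least 1 group.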
